A study of Mus musculus with 6 samples.

Results

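The genes of the integrin subunits that bind collagen or laminin were followed in N18-Fms cells, a mouse prostate cancer line that carries the receptor for CSF-1, before and after CSF-1 was added. The 8 genes were taken by name from their known ligands, with no threshold on a measured value, although earlier results of these data were known when the group was chosen. Itga1, Itga2, Itga10 and Itga11 encode α subunits that bind collagen, Itga3, Itga6 and Itga7 encode α subunits that bind laminin, and Itgb4 encodes the β subunit that pairs with the product of Itga6. All 8 were found on the array, on 10 of its 55681 probes and among 36163 gene names, with 2 probes each for Itga1 and Itga10.

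Each of 3 groups had 2 arrays: Control, labelled as vehicle and described in the methods as unstimulated, and cells given recombinant mouse CSF-1 at 100 ng/mL for 24 h or 48 h. The sample labels give these times, whereas the written methods of the study give shorter ones, and the labelled times were used. Every group shares the same background, namely a single luciferase-expressing clone of a tumor line from the TRAMP mouse, in which c-fms was introduced by retrovirus, sorted for the receptor at the surface and grown with dihydrotestosterone. These cells secrete CSF-1 themselves, so that the Control arrays show cells without added CSF-1 rather than cells without the ligand. RNA came from 2 independent experiments, and cells lacking the receptor were not among the arrays.

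Integrins are pairs of an α and a β subunit that span the membrane and link the extracellular matrix to the actin or keratin skeleton. The collagen-binding α subunits carry an inserted domain that contacts collagen, and they pair with the β subunit encoded by Itgb1. The laminin-binding α subunits read the basement membrane, also with the product of Itgb1, while the product of Itga6 can instead join that of Itgb4, whose long cytoplasmic tail ties it to keratin in hemidesmosomes. In the prostate, that pair is known for anchoring basal epithelial cells to the basement membrane.

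Itga1 and Itga2 lie next to each other on chromosome 13, on the same strand, and the probes that read them are shown because the results on collagen receptors rest on them. Both probes of Itga1 match the transcript across an intron, as 60 bases cover 1655 and 4139 bases of the genome. They lie 62968 bases apart, at chr13:115756765-115758419 and chr13:115821387-115825525 of build mm9, on the minus strand. The probe of Itga2 lies within 1 exon, at chr13:115626714-115626773 on the minus strand, and its capitals mark the bases that encode the conserved stretch next to the membrane on the cytoplasmic side of integrin α subunits.
Itga1, first probe: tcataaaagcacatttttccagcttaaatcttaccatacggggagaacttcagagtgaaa
Itga1, second probe: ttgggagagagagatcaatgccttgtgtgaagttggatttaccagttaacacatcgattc
Itga2: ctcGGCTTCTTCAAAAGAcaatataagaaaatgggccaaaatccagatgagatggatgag

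Levels are given as log2 of the background-subtracted signal, with the 75th percentile of each array set to 0, so that a difference of 1 is a 2-fold difference. Probes differ in brightness for a given amount of RNA, and levels were compared between groups for 1 probe at a time. Of 59305 spots on each array, between 58.7% and 72.0% were well above background by the scanner software and 0 were saturated. The lowest signal well above background lay between -5.08 and -4.26 among the arrays. The first replicate at 24 h was the only array on its slide, so that the other 5 arrays give the values within a slide. On those 5, a single array stood for 24 h. By the brightest probe of each gene, the 24 h changes were 1.52 for Itga2, 1.45 for Itga1, 1.28 for Itga6 and 0.91 for Itga7. They were -2.59 for Itga11, -0.87 for Itga10, -0.86 for Itga3 and -0.55 for Itgb4. Csf1r, the introduced receptor, was bright on all 6 arrays and did not pass the test at either time (limma adjusted p = 0.378 at 24 h and 0.80 at 48 h). The epithelial marker Krt8 was above background on 6 of 6 arrays and Krt18 on 3, whereas Epcam was on 1 and Cdh1 on 0, and the mesenchymal marker Vim was bright throughout. Of 7 macrophage and leukocyte markers, Ptprc, Cd14, Emr1 and Mpeg1 were above background on all 6 arrays, Cd68 on 4, and Lyz2 and Spi1 on 0.

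CSF-1 was followed by higher transcript levels of Itga1 and Itga2 among the collagen-binding subunits and of Itga6 and Itga7 among the laminin-binding ones, at 24 h and at 48 h. The increases lay between 1.01 and 1.76 on the log2 scale at 24 h and between 1.25 and 1.89 at 48 h. Itga11 was lower on all 4 stimulated arrays but missed the adjusted threshold, and Itga3, Itga10 and Itgb4 did not pass. With each gene read by its brightest probe, 4 of 8 rose at each time and 0 fell, at an adjusted p under 0.05. Over the 24643 genes tested, 12.8% passed at 24 h and 7.55% rose, while 12.1% passed and 5.92% rose at 48 h. The same 4 genes rose at both times, as did 4.49% of all genes tested, and the comparisons at 24 h and 48 h share the Control arrays. The median log2 change of the 8 genes was 0.36 at 24 h and 0.62 at 48 h, beside 0.04 and -0.04 over all genes tested. Testing required both arrays of at least 1 group to be well above background, a filter on dim probes. The probes of Itga1 and Itga2 met it only in the stimulated groups, and that of Itga11 only in Control. Without that filter, Itga2 passed at both times (limma adjusted p = 0.0405 and 0.038). The first probe of Itga1 then passed at 24 h (0.047) but not at 48 h (0.074). Itga11 passed at neither time (0.157 and 0.229).

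**Figure D1:**
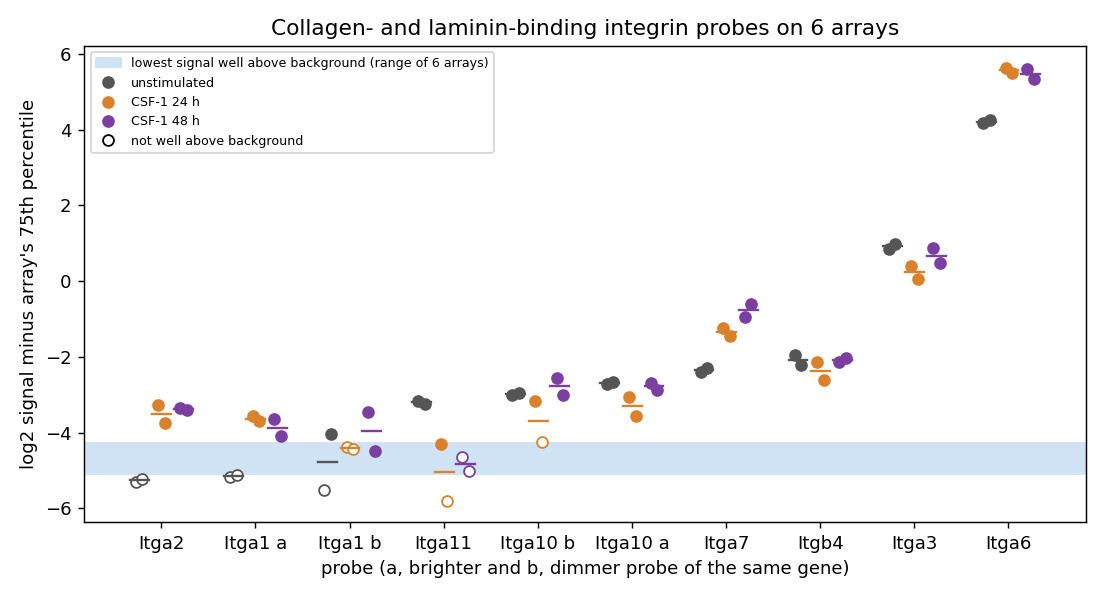
Log2 signal relative to the 75th percentile of the array (vertical axis) for each probe (horizontal axis) on the 2 Control (unstimulated) arrays and on the 2 arrays for each time with CSF-1, with bars at the group means. Filled points are well above background and open points are not, and the band is the range over arrays of the lowest signal well above background. The stimulated points of Itga2, the brighter probe of Itga1, Itga7 and Itga6 all lie above both Control points, and heights are not comparable between probes.

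Itga2 encodes the α subunit of a collagen receptor of platelets and of many epithelia. Its log2 signal was -5.29 and -5.22 on the Control arrays, where the probe was not well above background. It was -3.27 and -3.74 at 24 h and -3.34 and -3.41 at 48 h, well above background on all 4 arrays. All 4 stimulated arrays therefore lay above both Control arrays, by a gap wider than the spread within any group. The fitted change was 1.76 ± 0.18 (SE) at 24 h (adjusted p = 0.00756) and 1.89 ± 0.18 at 48 h (adjusted p = 0.00604). Because the Control level is only a bound, the mean of the stimulated arrays was also set against the lowest signal well above background on each Control array. It lay 2.34-fold above that level at 24 h and 2.56-fold at 48 h. These ratios take no account of the spread and hold for this background correction alone, and the changes with another correction, given below, were smaller.

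Itga1 encodes the α subunit of a receptor that favors the collagens of basement membranes. Its first and brighter probe read -5.16 and -5.13 on the Control arrays, again not well above background, against -3.57 and -3.69 at 24 h and -3.65 and -4.08 at 48 h. The groups did not overlap, and the change was 1.51 ± 0.17 (SE) at 24 h (adjusted p = 0.00959) and 1.28 ± 0.17 at 48 h (adjusted p = 0.0147). Its stimulated mean lay 2.14-fold at 24 h and 1.82-fold at 48 h above the lowest signal well above background in Control, again with no account of the spread. The second probe read -5.52 and -4.03 in Control, -4.37 and -4.43 at 24 h and -3.45 and -4.48 at 48 h. It was above background on 1 Control array, 0 arrays at 24 h and 2 at 48 h, and its groups overlapped. Its changes of 0.37 ± 0.56 (adjusted p = 0.709) and 0.81 ± 0.56 (adjusted p = 0.402) did not pass, so that the increase of Itga1 rests on 1 of its 2 probes. With the mean of both probes the adjusted p of Itga1 passed at neither time, and without either Control array it was between 0.0514 and 0.0836. Without either array at 24 h it was 0.0521 and 0.0519 at that time.

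With another background correction, normexp with an offset of 50 followed by quantile normalization, the changes of these dim probes were smaller. They were 0.42 at 24 h and 0.53 at 48 h for Itga2, which still passed, and 0.34 and 0.33 for the first probe of Itga1, with an adjusted p of 0.0551 at 48 h. With normexp and the 75th percentile, the adjusted p of that probe was 0.085 at 48 h.

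The other collagen-binding subunits did not pass at an adjusted p under 0.05, which does not show that their levels stayed the same. Itga11, known from fibroblasts and other mesenchymal cells as a receptor for fibrillar collagen, read -3.16 and -3.24 on the Control arrays, both well above background. It read -4.29 and -5.79 at 24 h, where 1 array was above background, and -4.64 and -5.01 at 48 h, where 0 were. All 4 stimulated arrays lay below both Control arrays. The change was -1.84 ± 0.48 (SE) at 24 h (adjusted p = 0.0669) and -1.62 ± 0.48 at 48 h (adjusted p = 0.0924). At 48 h neither array was well above background. Control was 2.70-fold above a level built from the lowest signal well above background on the first array and the second array's own value. The 95% confidence interval of the fitted change at 48 h, -2.84 to -0.41, also holds smaller falls. Itga11, which met the filter on dim probes only in Control, had an unadjusted p under 0.05 with at least a 2-fold change at both times. It was the 1 gene of the 8 to do so in the lower direction. By that pair of thresholds 5 of 8 were called at each time, beside 7.67% of all genes tested at 24 h and 6.48% at 48 h. In the lower direction alone the share of all genes tested was 1.82% at each time. At 24 h the size rests on the second replicate, as the change without it was -1.09 (adjusted p = 0.0745) and without the first replicate -2.59 (adjusted p = 0.0193).

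Itga10, the collagen-binding subunit best known from cartilage, was read by 2 probes that share 54 of their 60 bases. The brighter one, at chr3:96468383-96468442 of mm9 on the plus strand, read -2.70 and -2.66 in Control, -3.06 and -3.55 at 24 h and -2.69 and -2.86 at 48 h. Both arrays at 24 h were thus below Control, and those at 48 h were close to it. The change was -0.62 ± 0.19 (SE) at 24 h (adjusted p = 0.0959) and -0.09 ± 0.19 at 48 h (adjusted p = 0.80). The dimmer probe gave -0.72 ± 0.37 and 0.20 ± 0.37, with adjusted p-values of 0.269 and 0.773.

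**Figure D2:**
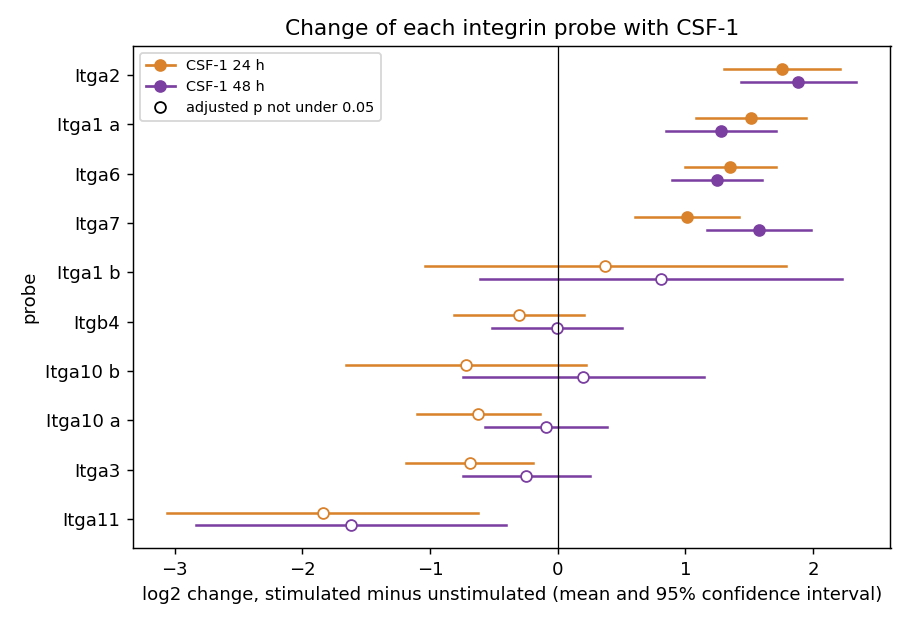
Log2 change against Control (horizontal axis) of each of the 10 probes (vertical axis) at 24 h and 48 h, as the limma estimate with its 95% confidence interval. Filled points have an adjusted p under 0.05: Itga2, the brighter probe of Itga1, Itga6 and Itga7 are filled at both times, and the dimmer probe of Itga1 has an interval from -1.04 to 1.79 at 24 h.

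Among laminin-binding subunits, Itga6 was read by a probe at chr2:71694756-71694815 of mm9, on the plus strand, with a signal far above background on all 6 arrays. Its product is a receptor for the laminins of epithelial basement membranes and a common marker of basal and progenitor cells in the prostate. The values were 4.18 and 4.24 in Control, 5.64 and 5.50 at 24 h and 5.59 and 5.33 at 48 h. Every stimulated array lay more than 1 above both Control arrays. The change was 1.35 ± 0.14 (SE), or 2.56-fold, at 24 h (adjusted p = 0.00782) and 1.25 ± 0.14, or 2.37-fold, at 48 h (adjusted p = 0.00945). With no filter on dim probes it did not pass at 48 h (adjusted p = 0.0555). Without either Control array the call at 48 h was lost, at adjusted p-values of 0.0623 and 0.0576, with changes of 1.22 and 1.28.

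Itga7 encodes the laminin receptor best known from skeletal muscle, where it joins the fiber to its basement membrane. Its probe, at chr10:128395274-128395333 on the plus strand, read -2.39 and -2.30 in Control, -1.23 and -1.44 at 24 h and -0.94 and -0.60 at 48 h. The groups followed each other without overlap, Control lowest and 48 h highest. The change was 1.01 ± 0.16 (SE), or 2.02-fold, at 24 h (adjusted p = 0.021) and 1.58 ± 0.16, or 2.99-fold, at 48 h (adjusted p = 0.0075). Without the filter on dim probes it did not pass at 24 h (adjusted p = 0.0792). At 24 h the call was lost without either Control array or either array at 24 h, at adjusted p-values between 0.0693 and 0.0947, and with median centring of the arrays, where the change was 0.71. At 48 h it was lost without the first Control array (adjusted p = 0.0538).

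Itga3 and Itgb4 did not pass at either time. Itga3, which encodes a receptor for the laminins of epithelial basement membranes, read 0.86 and 0.98 in Control, 0.40 and 0.06 at 24 h and 0.88 and 0.47 at 48 h, from a probe at chr11:94906334-94906393 on the minus strand. Its change was -0.69 ± 0.20 (SE) at 24 h (adjusted p = 0.081) and -0.25 ± 0.20 at 48 h (adjusted p = 0.467). Both arrays at 24 h were below Control, and the 48 h arrays overlapped it. Itgb4, read at chr11:115869666-115869725 on the plus strand, gave -1.94 and -2.21 in Control, -2.13 and -2.62 at 24 h and -2.13 and -2.03 at 48 h. The groups overlapped, with changes of -0.30 ± 0.20 (95% confidence interval -0.81 to 0.21) and -0.01 ± 0.20 (-0.51 to 0.50). A p-value above the threshold does not show that its level stayed the same, since these intervals reach changes of 0.5 in size.

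Itgb1, the β subunit that all 7 of these α subunits can use, read 3.08 and 3.28 in Control, 3.42 and 3.85 at 24 h and 3.32 and 3.57 at 48 h. All 4 stimulated arrays were above both Control arrays, by little. The change was 0.46 ± 0.19 (SE) at 24 h (adjusted p = 0.184) and 0.27 ± 0.19 at 48 h (adjusted p = 0.417), and a second probe gave 0.36 and 0.17, so that it did not pass. The difference between its change and those of the α subunits was not tested.

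Between 24 h and 48 h, 0 of the 8 genes and 0% of all genes tested passed at an adjusted p under 0.05 in limma. At an unadjusted p under 0.05 there were 2 of 8, Itga7 and Itga10, beside 13.1% of all genes. Itga7 was higher at 48 h by 0.57 ± 0.16 (SE, adjusted p = 0.256 in limma). Itga10 was higher at 48 h by 0.53 ± 0.19 (SE, adjusted p = 0.329 in limma). The differences of Itga2, the first probe of Itga1 and Itga6 were 0.13, -0.23 and -0.11, each within an interval that holds 0. Groups that do not overlap are common with 2 arrays each. They were found for 7 of 8 genes at 24 h, 5 at 48 h and 3 between the times, beside 59%, 58.8% and 47.9% of all genes.

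**Figure D3:**
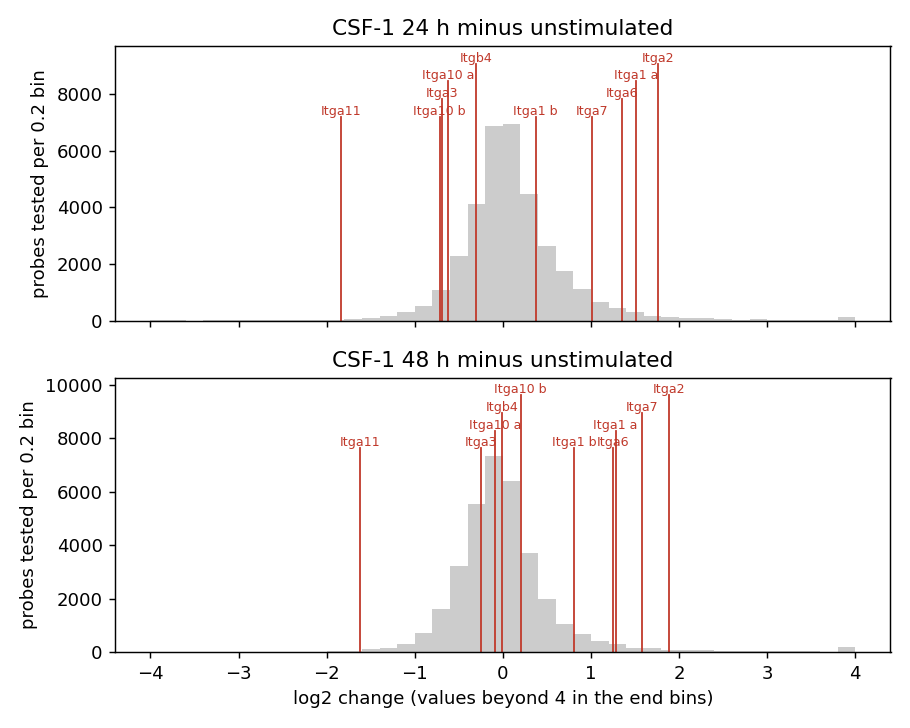
Number of probes tested per bin of 0.2 (vertical axis, grey bars) by log2 change (horizontal axis), at 24 h above and 48 h below, with the 10 probes of the collagen- and laminin-binding subunits as red lines, whose height has no meaning, and changes beyond 4 counted in the end bins. Itga2 lies above 97.9% of the probes tested at 24 h and 98.1% at 48 h, whereas Itga11 lies above 0.428% and 0.586%.

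Among all 34807 probes tested, the change of Itga2 was above 97.9% at 24 h and 98.1% at 48 h. The first probe of Itga1 was above 97.1% and 96.6%, Itga6 above 96.4% at both times, and Itga7 above 93.6% and then 97.5%. At the other end, the change of Itga11 exceeded that of only 0.428% and 0.586% of probes.

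The remaining integrin subunits, 19 genes, gave 13 that could be tested. Of these, 4 rose and 1 fell at 24 h, beside 7.55% and 5.23% of all genes tested. At 48 h, 1 rose and 1 fell, beside 5.92% and 6.22% of all genes tested. Itgb3, the β subunit of receptors for fibronectin, vitronectin and osteopontin, read -5.16 and -5.47 in Control, -1.43 and -0.30 at 24 h and -2.44 and -1.55 at 48 h. Its fitted change was 4.45 at 24 h (95% confidence interval 3.29 to 5.61, adjusted p = 0.00778). At 48 h it was 3.32 (2.16 to 4.48, adjusted p = 0.0161). Both were larger than that of any collagen- or laminin-binding subunit. The mean lay 14.6-fold at 24 h and 6.66-fold at 48 h above the lowest signal well above background in Control, with no account of the spread. Itgb3 met the filter on dim probes only in the stimulated groups, and its adjusted p without that filter is not given here. Itgb3 has 2 probes on the array, and these values are from the brighter one alone. Itga5, which makes the fibronectin receptor with the product of Itgb1, rose by 1.02 at 24 h (adjusted p = 0.0421), and its change at 48 h was 0.77 (adjusted p = 0.0822). Itgb8 and Itgae, the others of the 4, rose by 1.09 (adjusted p = 0.00821) and 0.94 (adjusted p = 0.044) at 24 h. Itgb5, another vitronectin receptor subunit, fell by 1.20 at 24 h (adjusted p = 0.0143) and by 0.78 at 48 h (adjusted p = 0.043).

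**Figure D4:**
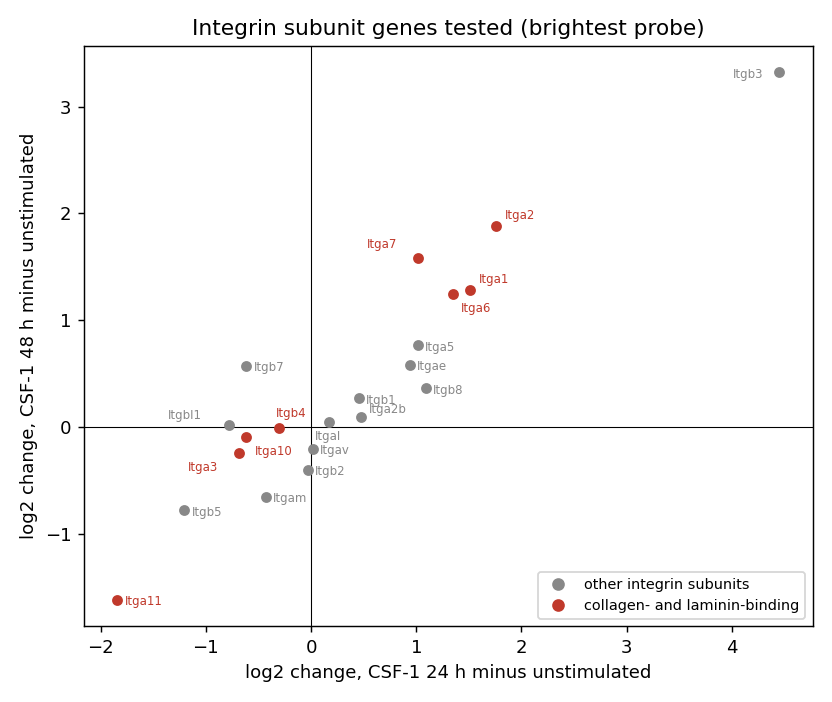
Log2 change at 24 h (horizontal axis) and at 48 h (vertical axis) of the 21 integrin subunit genes tested, each by its brightest probe, with the 8 collagen- and laminin-binding subunits in red and the other 13 in grey. Both axes share the Control arrays. Itgb3 lies at 4.45 and 3.32, farther out than Itga2 at 1.76 and 1.89.

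The ligands did not move as one group. Of 15 collagen genes tested out of 19 listed, 1 rose and 5 fell at 24 h (7.55% and 5.23% of all genes tested). At 48 h, 2 rose and 5 fell (5.92% and 6.22% of all genes tested). The median log2 change was -0.46 at 24 h and -0.30 at 48 h. Col1a2, a chain of the fibrillar collagen of bone and scar, read 7.63 and 7.58 in Control, 6.24 and 6.08 at 24 h and 6.64 and 6.10 at 48 h. It fell by 1.44 (adjusted p = 0.0153) and 1.23 (adjusted p = 0.0244). Col1a1, Col3a1 and Col5a2 also fell at both times, and Col5a3 rose at 48 h. Col5a1, which regulates fibril assembly, fell by 1.25 (adjusted p = 0.014) and 0.95 (adjusted p = 0.0293). Col18a1, a basement membrane collagen and the precursor of endostatin, rose by 1.34 (adjusted p = 0.0105) and 2.03 (adjusted p = 0.00368).

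Of 9 laminin chain genes tested out of 11, 1 rose and 1 fell at 24 h (7.55% and 5.23% of all genes tested). At 48 h, 1 rose and 0 fell (5.92% and 6.22% of all genes tested). Lama2, the α chain of the laminin around muscle fibers, read -2.37 and -2.27 in Control, -1.18 and -0.88 at 24 h and -1.39 and -0.98 at 48 h. It rose by 1.29 (adjusted p = 0.017) and 1.13 (adjusted p = 0.025). Lamb2, a β chain, fell by 0.84 at 24 h (adjusted p = 0.0288) and was 0.45 lower on the log2 scale at 48 h (change of -0.45, adjusted p = 0.126).

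Inside the cell, 22 of 23 activators and adaptors of integrins could be tested. Of these, 1 rose and 3 fell at 24 h (7.55% and 5.23% of all genes tested). At 48 h, 1 rose and 2 fell (5.92% and 6.22% of all genes tested). Parvb, a partner of integrin-linked kinase, rose by 0.89 (adjusted p = 0.012) and 0.69 (adjusted p = 0.0238). Vcl, which encodes vinculin, a link from adhesions to actin, fell by 0.80 at 24 h (adjusted p = 0.0354), with a change of -0.44 at 48 h (adjusted p = 0.143). Rsu1, part of the same kinase complex, fell by 0.74 at 24 h (adjusted p = 0.0296), with a change of -0.47 at 48 h (adjusted p = 0.0894). Bcar1, an adaptor of focal adhesions, fell at both times, and Parva, a relative of Parvb, fell at 48 h.

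Of 9 hemidesmosome and tetraspanin partners of the laminin receptors, 1 rose and 0 fell at each time. Of all genes tested, 7.55% rose and 5.23% fell at 24 h, and 5.92% and 6.22% at 48 h. The 1 gene that rose was Col17a1, a transmembrane collagen of hemidesmosomes. Its probe read -6.75 and -6.73 in Control, -2.16 and -2.49 at 24 h and -3.63 and -3.65 at 48 h. Its fitted change was 4.41 at 24 h (adjusted p = 0.00136) and 3.10 at 48 h (adjusted p = 0.00144). The mean lay 5.28-fold and 2.13-fold above the lowest signal well above background in Control. Col17a1 met the filter on dim probes only in the stimulated groups, and its adjusted p without that filter is not given here. Itgb4, whose product is found in hemidesmosomes too, did not pass.

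Of 10 other receptors for collagen or laminin tested, 4 rose and 1 fell at 24 h (7.55% and 5.23% of all genes tested). At 48 h, 3 rose and 1 fell (5.92% and 6.22% of all genes tested). The collagen-activated receptor tyrosine kinases went opposite ways. Ddr1 read 0.96 and 0.93 in Control, 1.83 and 1.78 at 24 h and 1.92 and 1.87 at 48 h. It rose by 0.86 (adjusted p = 0.0117) and 0.95 (adjusted p = 0.00945). Ddr2 read 1.83 and 1.94, then 0.95 and 0.97, then 0.88 and 1.01, and fell by 0.92 (adjusted p = 0.012) and 0.94 (adjusted p = 0.0121). Sdc4, a heparan sulfate proteoglycan of focal adhesions, rose by 1.18 (adjusted p = 0.0116) and 0.73 (adjusted p = 0.0376). Sdc1, another syndecan, rose at both times, and Gp6, another collagen receptor of platelets, rose at 24 h. With single arrays left out, the calls went from 5 to between 0 and 4 for the other integrins at 24 h, from 6 to between 0 and 6 for collagens, and from 5 to between 0 and 5 for these receptors. They went from 4 to between 0 and 2 for the activators and adaptors, from 2 to between 0 and 2 for laminins, from 3 to between 0 and 2 for the mesenchymal markers and from 2 to between 0 and 2 for the macrophage and leukocyte markers. At 48 h they went from 2 to between 0 and 1 for the other integrins, from 7 to between 1 and 5 for collagens, from 3 to between 0 and 1 for the activators and adaptors, from 4 to between 0 and 3 for these receptors, from 1 to between 0 and 1 for laminins, from 2 to between 0 and 1 for the mesenchymal markers, and from 2 to 1 for the macrophage and leukocyte markers. Of the hemidesmosome and tetraspanin partners, 1 gene passed with each array left out, at both times.

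Markers of other cell types moved on the same arrays. Of 5 macrophage and leukocyte markers tested, 2 rose and 0 fell at each time, Cd14 and Mpeg1. The log2 of the summed level of the 7 listed, of which these 2 were the brightest, lay between 1.33 and 1.45 in Control. It lay between 2.19 and 2.66 on the stimulated arrays. Of 5 mesenchymal markers tested, 1 rose and 2 fell at 24 h and 0 rose and 2 fell at 48 h. The rise was that of Pdgfra and the falls those of Acta2 and Pdgfrb. Of all genes tested, 7.55% rose and 5.23% fell at 24 h, and 5.92% and 6.22% at 48 h. The summed mesenchymal level lay between 8.47 and 8.57 in Control and between 8.07 and 8.32 after CSF-1. Most of it is Vim, which did not pass (limma adjusted p = 0.438 and 0.218). Probes differ in brightness for a given amount of RNA, so neither sum is an amount of RNA. Of the epithelial markers, Krt8 rose by 1.98 at 48 h (adjusted p = 0.0127), and Krt18 did not pass at either time (adjusted p = 0.0561 and 0.126). The part of these markers in the integrin results was not tested, and in bulk RNA fewer cells of a type and less RNA per cell cannot be told apart.

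Around Itga1 and Itga2, the nearest protein-coding genes in the RefSeq annotation were Fst and Mocs2 on one side and Pelo, which lies inside Itga1, and Isl1 on the other. Fst, which encodes the activin inhibitor follistatin, read -4.66 and -3.21 in Control, 0.09 and -0.21 at 24 h and 0.20 and 0.37 at 48 h. It rose by 3.87 (adjusted p = 0.011) and 4.22 (adjusted p = 0.00915), with 1 Control array above background. Mocs2, next to Itga2, changed by 0.35 (adjusted p = 0.146) and 0.07. Pelo changed by 0.16 (adjusted p = 0.438) and 0.13, and Isl1 by 0.20 (adjusted p = 0.288) and 0.32 (adjusted p = 0.124). Of these neighbors, Fst thus passed at both times, as did Itga2 and the first probe of Itga1, while Mocs2, Pelo and Isl1 passed at neither.

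The RefSeq promoter table, with windows of 300 bases from 250 before to 50 after the start of a gene, held 5 of the 8 genes and 6 windows, as Itga3 has a second start. Itga6, Itga7 and Itgb4 were not matched. The 250 bases before the starts of Itga1 and Itga2, the neighbors that rose together, are given here on the strand of the gene, from build GRCm38.p6.
Itga1, chr13:115101965-115102214, minus strand: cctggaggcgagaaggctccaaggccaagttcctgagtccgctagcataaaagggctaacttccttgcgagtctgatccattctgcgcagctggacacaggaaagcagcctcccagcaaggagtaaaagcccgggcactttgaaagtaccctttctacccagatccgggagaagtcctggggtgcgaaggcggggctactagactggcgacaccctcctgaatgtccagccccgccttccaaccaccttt
Itga2, chr13:114932101-114932350, minus strand: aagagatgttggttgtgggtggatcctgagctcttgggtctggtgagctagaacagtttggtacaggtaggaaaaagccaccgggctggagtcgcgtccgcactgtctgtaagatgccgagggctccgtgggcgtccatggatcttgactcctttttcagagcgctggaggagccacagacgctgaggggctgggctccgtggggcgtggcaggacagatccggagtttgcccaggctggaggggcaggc
Searched on both strands, these stretches held 0 matches to TTCNNNGAA, the form read by STAT factors, to TGANTCA of AP-1, to GGGCGG of SP1, to TATAAA or to CGGAAG of ETS factors, so that no capitals stand in them. The window of Itga2 held 1 match to GGGCGG after the start, a motif found in 35.7% of the 32851 windows in the table. Of the others, Itga10 held 1 match to TTCNNNGAA (8.3% of windows), the first start of Itga3 held 3 to GGGCGG and 1 to CGGAAG (16.9%), its second start held 1 to TGANTCA (7.8%) and 1 to GGGCGG, and Itga11 held 0. TATAAA was in 13.6% of windows. These are matches of letters, and 0 matches says nothing about a factor bound elsewhere.

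The genes whose levels over the 6 arrays most resembled a member that rose were found by Pearson's r among 13847 genes, as a description, since the arrays fall into 3 groups that any responding gene shares. For Itga2 they were Shkbp1, Zfp704 and Prelid2, with r between 0.996 and 0.997. For Itga1 they were Rgs12, Shf and Ern1, with r between 0.997 and 0.998. For Itga6 they were Rorb, Dppa2 and B4galt3, with r between 0.996 and 0.997, and for Itga7 they were Hsd3b7, Mgst1 and Ctsl, with r between 0.997 and 0.999. Likeness at this height was common, as between 342 and 475 genes exceeded 0.95 for each of the 4.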

How the data were processed

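Gene expression was measured with 6 single-color Agilent arrays, 2 per group. Per the file headers and the labels, the authors quantified them with Agilent Feature Extraction 11.0.1. The signal intensity they deposited is background-subtracted and detrended, but not normalized between arrays. The authors also deposited log2 values for part of the probes, used as an alternative: 99.8% of their differences between arrays lay within 0.05 of those of the log2 signal, apart from a constant per array. How they were centered is not given in the sources used here. The deposited flags of the software, scored 0 or 1, tell which spots stood well above background, which were saturated and which were outliers.

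Outlier spots were left out, as were 303 probes with no other spot on some array, and repeated spots were averaged. The log2 signal minus the array's 75th percentile was fitted with limma 3.58.1 (lmFit and eBayes, 2-sided) in R 4.3.3, with version 1.17.8 of data.table. All 6 arrays entered 1 fit (residual degrees of freedom 3, prior 2.38). Testing required that 1 group or more had both of its arrays well above background for the probe, which left 34807 probes, and p-values were adjusted over them by Benjamini-Hochberg. An exact test of 2 arrays against 2 cannot go under p = 0.333. The number of arrays limits the precision. Replicate arrays correlated at r between 0.992 and 0.993 across probes, which are not independent. The procedure was tested on simulated data of 34807 probes: at an adjusted p under 0.05, 27% of 100 probes changed by 1 (log2) were recovered at 24 h and 23% at 48 h, and 67% and 68% of 100 changed by 2. Of the unchanged probes, 3 passed at 24 h and 4 at 48 h. Far fewer probes were changed there than passed on the real arrays, and the adjusted threshold depends on that number. These shares are therefore not the recovery on the real arrays. The study names a p under 0.05 and a 2-fold change, and whether that p was adjusted is not given in the sources used here.

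The members and gene lists were chosen with earlier results of these data known. The text names all 8 members with every probe, Itgb1, for each list the 3 genes with the largest mean change among those that passed at either time, and the 3 genes most like each member that rose. Other genes behind small counts, and the neighbors of Itga1 and Itga2, were named after their values were seen. Apart from the members and Itgb1, genes were read by their brightest probe alone. Some have a further probe that is not given, such as Itgb3, Col18a1, Lama2, Parvb, Vcl, Ddr2, Krt8 and Mpeg1. Of 118 listed genes, 115 had a value, 1 of them through an older symbol. No protein sequences were used here. A listed epithelial marker is not reported here. Alternatives covered normalization, background correction, the filter, probes per gene, the prior spread, the groups in the fit, a replicate block and each array left out.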

Additional observations from a re-analysis of the deposited data

How the results depend on the processing

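The number of genes passing in either direction, 4 at each time, was 7 at 24 h with normexp and quantile normalization, 2 at 48 h without the filter on dim probes, and 2 at each time with all 6 arrays required above background, where 5 of the 8 genes could be tested. With 1 array left out it ranged from 2 to 4 at 24 h and from 1 to 5 at 48 h, and between the times from 0 to 0, the lone array of a group being assumed to vary like the others. Itga2 passed in all 18 alternatives at both times and Itga6 in 19 of 19 at 24 h and 16 of 19 at 48 h. Itga7 passed in 13 and 18 of 19 and the first probe of Itga1 in 13 and 12 of 18. Itga11 passed in the lower direction in 6 and 7 of 18, and at 24 h Itga3 did in 4 of 19 and Itga10 in 3 of 19. Median centring shifted the median change of all probes by -0.30 at 24 h and -0.10 at 48 h and between the times by 0.20. The share of calls that were higher, 60% at 24 h and 48.3% at 48 h, was then 24% and 40.7%, and 71.3% and 62.6% with the percentile over probes above background on all arrays. It was 49.9% and 50.3% with quantile normalization, 48.2% and 38.6% with normexp, and 44.8% and 44.3% with normexp and quantile normalization. Calls among all probes, 4410 at 24 h and 4049 at 48 h, were 1110 and 712 without the filter, 7218 at 48 h with an intensity trend, 2338 at 48 h with only the groups compared, and 869 to 3044 and 955 to 2338 with 1 array left out. Between the times they were 0, and 1 with median centring, 249 with normexp, 352 with normexp and quantile normalization, 6 with all arrays above background and 247 with a trend.

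Changes that turned in sign had not passed. At 24 h the second probe of Itga1 was -0.22 with quantile normalization and -0.11 with normexp and quantile normalization, and from -0.37 to 1.12 with 1 array left out. At 48 h Itgb4 was 0.0737 with the percentile over probes above background on all arrays, 0.0059 in the authors' log2 values and from -0.14 to 0.13 with 1 array left out. Itga10 was 0.0553 at 48 h with the mean of its probes, and its dimmer probe ranged from -0.0326 to 0.44. Between the times Itga1 was 0.045 with quantile normalization and 0.10 with the mean of its probes, Itga6 was 0.0924 with median centring, and with normexp Itga2 was -0.0249 and Itga11 -0.0408. With 1 array left out these differences ranged from -0.0766 to 0.95 for the second probe of Itga1, from -0.11 to 0.36 for Itga2, from -0.53 to 0.97 for Itga11 and from -0.24 to 0.027 for Itga6. The cause was not tested.

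Deviations of same-numbered arrays correlated at 0.109, 0.096 and 0.171, of which 1 was below the limit of 0.1 set for pairing, so the numbers were not taken to pair the arrays. The third principal component (10.4% of variance) did separate them, with scores from 21.4 to 30.7 for replicate 1 and from -28.6 to -22.2 for replicate 2, and the RNA came from 2 independent experiments. With the replicate number as a block, 4 genes passed at 24 h, 4 at 48 h and 0 between the times, and 4651, 4479 and 0 of all probes. Signal over background limits Itga1, Itga2 and Itga11, whose lower group is only a bound.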
